A study of Mus musculus with 3 samples.

Results

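The genes described here encode amino acid transporters of 6 mouse solute carrier families, Slc1a, Slc3a, Slc6a, Slc7a, Slc36a and Slc38a. They were taken from the deposited expression table by symbol, as every entry with one of these family names followed by a number, with Slc7a11 left out. This gave 55 of 22738 genes, and 18 of the 55 reached a mean of 1 FPKM (fragments per kilobase of transcript, scaled to the mapped fragments of the library) over the 3 libraries. Symbols ending in a letter, such as Slc6a20a and Slc6a20b, fall outside this choice, and both had at most 0.0283 FPKM. The families also hold carriers of taurine, creatine, betaine and monoamines, so the group is wider than amino acid transport in the strict sense.

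The libraries are RNA-seq of 3 mouse pancreatic tumour cell lines of the HI-Panc progression model, with 1 library (n = 1) for each stage, named HI-Panc-L where localized, HI-Panc-I where invasive and HI-Panc-M where metastatic. All 3 share a transgenic p16-/- genotype and were derived from mouse tumours, and the series was laid out to follow expression from the localized to the metastatic stage in 1 lineage. As tissue, the labels give liver for the metastatic line, pancreatic tissue for the invasive one and body wall for the localized one. Body wall and pancreas are the opposite of what the names localized and invasive would imply. Libraries are called here by their stage label, and an exchange of that pair of lines would turn the direction between them. Growth medium was DMEM with 10% FBS for all. The treatment label, the same for every library, describes hypoxic models made with cobalt chloride at 100 ng/ml for 24 h, without saying which libraries were treated. An untreated partner was not analysed here. With 1 library a stage there is no replicate check and no p-value, and every difference is between these libraries.

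Amino acids cross membranes through carriers that work by exchange, by sodium or proton coupling, or down the membrane potential. Several Slc7a carriers are light chains that reach the cell surface only when bound to a heavy chain, Slc3a2 (also known as CD98 or 4F2hc) or Slc3a1 (rBAT). In tumour cells the glutamine carriers Slc1a5 and Slc38a2 and the leucine carrier Slc7a5 are known for supplying nitrogen and for feeding the growth kinase complex mTORC1, while Slc36a1, Slc38a7 and Slc38a9 act at the lysosome.

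Depth was estimated from low values, where FPKM moves in steps of whole fragments, at 46100000 fragments (localized), 41500000 (invasive) and 43900000 (metastatic). Of 393 to 497 low genes a library, 81.9% to 82.7% came within 0.1 of a whole fragment at this depth. Evenly spread values give 20% at a depth fixed beforehand. The depth was picked to bring these same values nearest to whole fragments, so the share describes the fit and is no separate test of it. Of 10 ductal and epithelial markers, 6 were 2-fold or more higher in the invasive than in the localized library and 8 in the metastatic. Of all genes with a mean of at least 1 FPKM, 8.78% and 9.08% were. Sox9 was lower in the metastatic than in the localized library, at 11.4 against 17.5 FPKM. The summed level of the 10 was 1222 FPKM in the localized library, 6429 in the invasive and 6927 in the metastatic, mostly from keratins. Below, 3 levels given in a row follow this order. The 6 fibroblast markers went the other way, with sums of 446, 81.7 and 7.37 FPKM. Acinar markers summed to 7.33, 1.23 and 0.907 FPKM and leukocyte markers to 4.86, 10.9 and 10.1 FPKM. Cela1 (7.24, 1.13 and 0.323 FPKM) carried most of the first sum in the localized and invasive libraries, and Cd68 (4.82, 10.5 and 9.93 FPKM) most of the second, with Cd3e at 0 and Ptprc and Csf1r at no more than 0.197 FPKM. The acinar markers Cpa1 and Ptf1a and the islet hormones Ins1, Ins2, Gcg and Sst were at 0 in every library, and hepatocyte, skeletal muscle, endothelial and neural lists summed to at most 2.23 FPKM. The mesothelial list was carried by Msln (106, 291 and 409 FPKM). In a bulk library fewer cells of a type and less RNA per cell cannot be told apart.

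The transporters past the filter differed most between the localized library and the other pair. Slc7a7, Slc36a1 and Slc7a4 were higher by 2-fold or more in the invasive than in the localized library, which is 3 of 18 members (16.7%) against 8.78% of 11404 genes past the same filter. In the metastatic against the localized library Slc7a7 and Slc36a1 were past 2-fold, 2 of 18 members (11.1%) against 9.08% of genes. No member past the filter was 2-fold lower in either comparison, where 6.07% and 7.29% of genes were. Between the metastatic and invasive libraries 0 of 18 members differed by 2-fold in either direction, against 1.33% of genes higher and 1.67% lower, and all 18 were within 1.5-fold. Slc7a4 passed the filter only through the invasive and metastatic libraries, and of the 16 members with at least 1 FPKM in every library 2, Slc7a7 and Slc36a1, were past 2-fold in the invasive library. With 18 members, 1 gene is 5.56% of the group, so these shares lie near the background. The fold rule was applied to log2(FPKM + 1), which understates the fold of low genes. The epithelial and fibroblast markers given above move between the same libraries, and their part in the transporter differences was not tested.

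**Figure D1:**
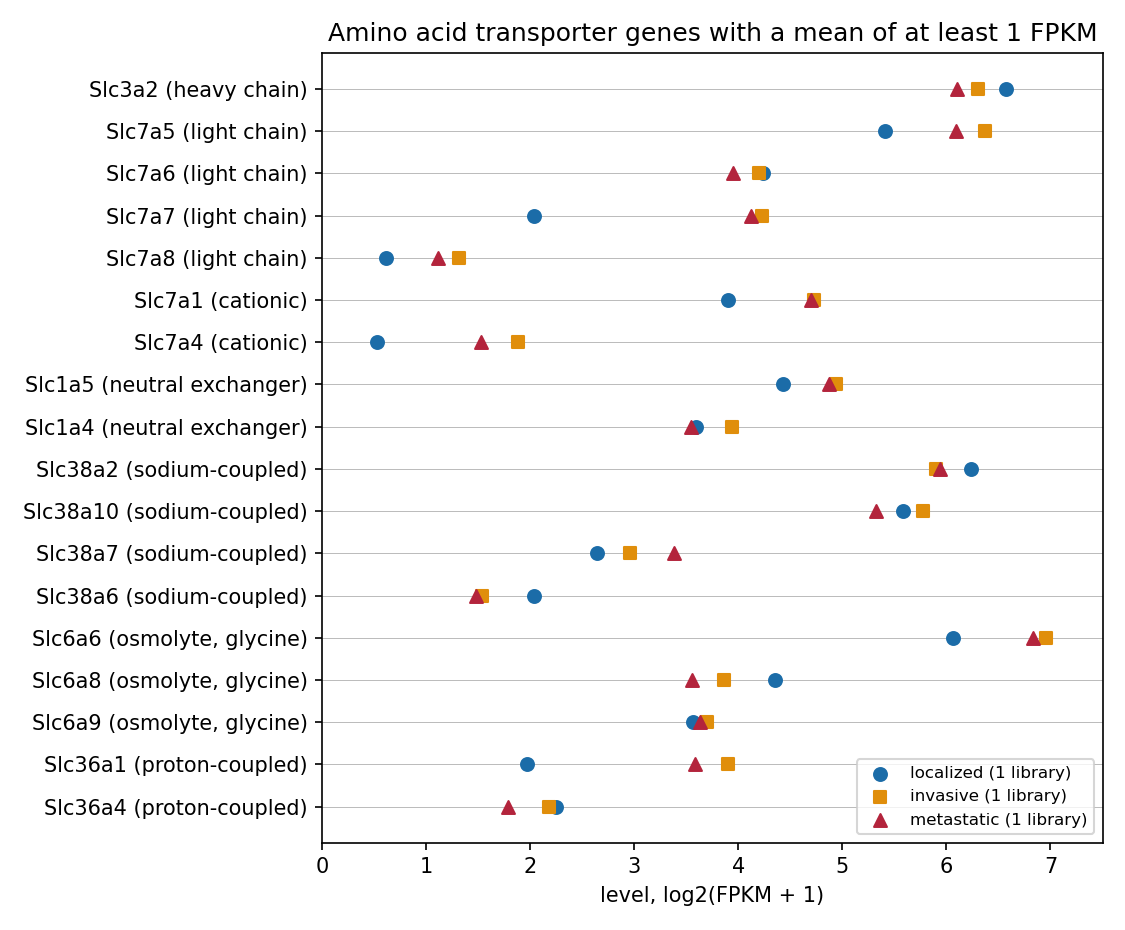
Levels of the 18 transporter genes with a mean of at least 1 FPKM, on a log2(FPKM + 1) axis, with 1 point for each library and the carrier group in brackets. Slc7a7 and Slc36a1 have a localized point (blue circle) far to the left of the other 2, while Slc6a6, Slc3a2 and Slc38a2 lie at the right in every library.

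Promoter sequence is shown for the pair of genes past 2-fold in both the invasive and the metastatic library, Slc36a1 and Slc7a7. The RefSeq table held promoters for 38 of the 55 genes, and 3 motifs were searched on both strands in the 250 bases before each start. These were the E-box CACGTG, the composite TGATGCAA of C/EBP and ATF factors known from amino acid response elements, and the core TTTATG bound by caudal-type homeobox factors. Capitals mark the matches.
Slc36a1, chr11:55204090-55204339 of GRCm38.p6, plus strand, the 250 bases before its start: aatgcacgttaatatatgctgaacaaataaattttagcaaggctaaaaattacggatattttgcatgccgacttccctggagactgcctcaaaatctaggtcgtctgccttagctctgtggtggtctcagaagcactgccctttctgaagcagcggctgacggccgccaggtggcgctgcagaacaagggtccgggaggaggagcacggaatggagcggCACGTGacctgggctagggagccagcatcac
Slc7a7, chr14:54417923-54417952 of GRCm38.p6, minus strand, 30 bases around the match: tagaagcTGATGCAAcagcttccccgaggg
The E-box begins 31 bases before the Slc36a1 start, and 6.02% of 32851 mouse promoters of the same length hold it. The composite begins 243 bases before 1 of 5 Slc7a7 starts annotated by RefSeq, and spans the outermost of them, at position 54417944. It is held by 0.791% of promoters, and the caudal-type core by 10.8%. The 38 member genes have 58 promoters, of which 1, of Slc7a7, held the composite and 1, of Slc7a15, the caudal-type core. The E-box was in 7 of the 58 (Slc1a6, Slc1a7, Slc36a1, Slc38a5, Slc38a7, Slc6a3 and Slc7a14). A match of letters is a description and not a binding site.

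The heavy chain Slc3a2 (GRCm38 chromosome 19, 8706882 to 8723369, minus strand) was the most abundant member in the localized library. It had 94.2 FPKM in the localized library, 78.0 in the invasive and 67.7 in the metastatic, highest in the localized and lowest in the metastatic library and within 2-fold. The differences against the localized library were -0.27 and -0.47 on the log2(FPKM + 1) scale. The other heavy chain, Slc3a1, which pairs with Slc7a9 in kidney and intestine, was barely detected, with 0.308, 0.0228 and 0.0108 FPKM or about 29, 2 and 1 fragments. Its exons overlap those of Prepl on the opposite strand (8.21, 10.6 and 11.6 FPKM), and the sources used here do not say whether the libraries keep strand. Its partner Slc7a9 had 0, 0.0445 and 0.0604 FPKM, at most 5 fragments, and Slc7a13, also linked to Slc3a1, was at 0 in every library.

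Of the 4 light chains of Slc3a2 past the filter, Slc7a5, Slc7a7 and Slc7a8 were higher outside the localized library. On the log2(FPKM + 1) scale, Slc7a7 differed most of the 18 members from the localized library. Slc7a7 (y+LAT1, GRCm38 chromosome 14, 54369442 to 54417780, minus strand), which exchanges cationic for neutral amino acids, had 3.10 FPKM in the localized library, 17.7 in the invasive and 16.4 in the metastatic. The invasive over localized ratio was 5.71 (95% counting interval 5.04 to 6.48) and the metastatic over localized ratio 5.29 (4.66 to 6.01). On the log2(FPKM + 1) scale the differences were 2.19 and 2.08, above 97.3% and 96.8% of all genes past the filter. The invasive and metastatic libraries were close, with a difference of -0.10. Exons of Oxa1l overlap Slc7a7 on the opposite strand, and Oxa1l had 22.4, 33.6 and 28.8 FPKM, so part of the Slc7a7 value cannot be told apart from it.

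Slc7a5 (LAT1), the carrier of leucine and other large neutral amino acids, was the most abundant light chain in every library and lay just under the 2-fold rule. Its levels were 41.5, 81.8 and 67.1 FPKM in the localized, invasive and metastatic libraries. The ratio to the localized library was 1.97 (1.91 to 2.03) for invasive and 1.62 (1.57 to 1.67) for metastatic, with log2 differences of 0.96 and 0.68. Slc7a6 (y+LAT2), the close relative of Slc7a7, did not share its pattern, with 17.9, 17.4 and 14.4 FPKM. Slc7a8 (LAT2) had 0.533, 1.48 and 1.16 FPKM, 95 to 239 fragments, and passed the filter through the invasive and metastatic libraries. Slc7a10, a light chain of the brain, was at 0 in all 3.

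Set beside the heavy chain, the balance of the complex differed between libraries. The members Slc7a5, Slc7a6, Slc7a7, Slc7a8 and Slc7a10 summed to 63.0 FPKM in the localized library, 118 in the invasive and 99.1 in the metastatic, which is 0.669, 1.52 and 1.46 times the level of Slc3a2. The cystine carrier Slc7a11, which shares this heavy chain but is not among the 55 genes, went the other way with 18.3, 8.76 and 5.95 FPKM. With it the light chains came to 0.864, 1.63 and 1.55 times the heavy chain, so the order of the libraries was kept. Without Slc7a5 the sums were 0.228, 0.469 and 0.472 times the heavy chain. These are ratios of transcript levels and not of protein.

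**Figure D2:**
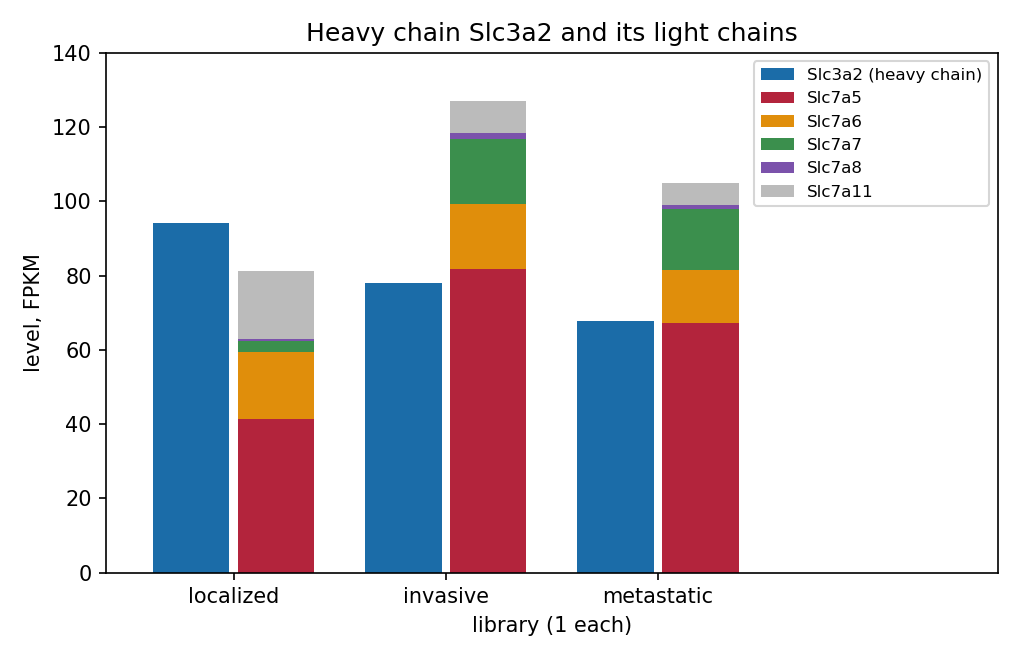
Transcript levels in FPKM of the heavy chain Slc3a2 (blue bars) and of the light chains that bind it (stacked bars), 1 library per stage, with Slc7a11 in grey since it is not a member. The heavy chain stands at 94.2, 78.0 and 67.7 FPKM, and the stack with Slc7a11 stands below it in the localized library (81.4 FPKM) and above it in the invasive (127 FPKM) and metastatic (105 FPKM) libraries.

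Among the cationic carriers, the main one was higher outside the localized library while the rarer ones went both ways. Slc7a1 (CAT1), a widespread carrier of arginine and lysine, had 14.0 FPKM in the localized library, 25.5 in the invasive and 25.0 in the metastatic. Its ratios to the localized library were 1.83 (1.76 to 1.89) and 1.79 (1.72 to 1.86), under the 2-fold rule. Slc7a4, placed in this group by sequence, had 0.444, 2.68 and 1.88 FPKM, or about 63, 342 and 255 fragments. Its ratio was 6.03 (4.60 to 8.02) for invasive and 4.24 (3.21 to 5.69) for metastatic over localized, whereas the log2(FPKM + 1) differences were 1.35 and 0.997, the second just under the rule. P2rx6, whose exons overlap Slc7a4 on the opposite strand, had 0.686, 0.123 and 0.0551 FPKM, the reverse order of the localized library against the others.

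Slc7a2 (CAT2) and Slc7a3 (CAT3), both under the filter, were highest in the localized library. Slc7a2 had 1.03 FPKM there, 0.257 in the invasive and 0.0335 in the metastatic, about 365, 82 and 11 fragments. Slc7a3 had 1.80, 0.221 and 0.378 FPKM, about 212, 23 and 42 fragments. The metastatic over localized ratio was 0.0327 (0.0157 to 0.0573) for Slc7a2 and 0.209 (0.146 to 0.291) for Slc7a3. Because Slc7a1 is far more abundant, the summed cationic carriers still stood at 17.4, 28.7 and 27.4 FPKM. The lysosomal family member Slc7a14 had at most 0.111 FPKM.

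The neutral exchangers Slc1a5 and Slc1a4 were expressed in all libraries with small differences. Slc1a5 (ASCT2), known for glutamine uptake, had 20.6, 29.6 and 28.3 FPKM in the localized, invasive and metastatic libraries, and the ratio to the localized library was 1.44 (1.37 to 1.52) and 1.38 (1.31 to 1.45). Slc1a4 (ASCT1), which carries alanine and serine, had 11.1, 14.3 and 10.6 FPKM, with the invasive library the highest. The 5 glutamate carriers of the family, Slc1a1, Slc1a2, Slc1a3, Slc1a6 and Slc1a7, summed to at most 0.226 FPKM, and Slc1a6 was at 0 in every library.

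The sodium-coupled Slc38a carriers summed to 131, 123 and 112 FPKM over 11 genes, a sum carried by Slc38a2 and Slc38a10, and the members differed in their order. Slc38a2 (SNAT2), a glutamine and alanine carrier known to be induced when amino acids are short, had 74.5 FPKM in the localized library, 58.6 in the invasive and 60.3 in the metastatic. Slc38a10 had 47.0, 53.9 and 38.9 FPKM. Its metastatic against invasive difference of -0.46 on the log2(FPKM + 1) scale was the lowest of the 18 members in that comparison and within 1.5-fold.

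Slc38a7 (SNAT7), which exports glutamine from lysosomes, had 5.23, 6.79 and 9.42 FPKM and was the 1 member past the filter with its lowest level in the localized and its highest in the metastatic library and the invasive between them, a pattern of 22.6% of genes. With the localized and invasive lines exchanged, 0 members were higher at each stage, against 8.62% of genes. Its ratio was 1.80 (1.64 to 1.97) for metastatic over localized and 1.39 (1.27 to 1.51) for metastatic over invasive. Slc38a6 was lower outside the localized library, with 3.10, 1.90 and 1.79 FPKM. Slc38a9, a lysosomal arginine sensor of mTORC1, had 0.781, 0.738 and 1.02 FPKM, about 313, 267 and 390 fragments, just under the mean set for the filter. Its metastatic over localized ratio was 1.31 (1.12 to 1.52).

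Slc38a1 (SNAT1), a relative of Slc38a2 for glutamine, stood out in the invasive library at a low level. It had 0.0857 FPKM in the localized library, 0.685 in the invasive and 0.0100 in the metastatic, about 28, 201 and 3 fragments. The invasive over localized ratio was 7.99 (5.35 to 12.3), and the metastatic over invasive ratio was 0.0146 (0.00289 to 0.0418). Slc38a4 had 0.215, 0.0581 and 0.00612 FPKM, about 37, 9 and 1 fragments, and Slc38a3, Slc38a5, Slc38a8 and Slc38a11 had at most 7 fragments.

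Of the Slc6a family, 3 members reached the filter and none of them carries a protein amino acid other than glycine. Slc6a6 (TauT), the taurine carrier and a known osmolyte gene, was the most abundant member in the invasive and metastatic libraries. It had 65.8 FPKM in the localized library, 123 in the invasive and 113 in the metastatic, with ratios to the localized library of 1.87 (1.83 to 1.90) and 1.72 (1.69 to 1.75). Slc6a8, the creatine carrier, was highest in the localized and lowest in the metastatic library, with 19.5, 13.5 and 10.8 FPKM. Its metastatic against localized difference of -0.80 on the log2(FPKM + 1) scale was the lowest of the 18 members in that comparison, at a ratio of 0.553 (0.518 to 0.589). Slc6a9 (GlyT1), a glycine carrier, had 10.8, 12.0 and 11.4 FPKM. Its exons overlap those of B4galt2 on the opposite strand, which had 24.3, 8.41 and 6.96 FPKM.

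Slc6a12 (BGT1), a carrier of betaine and GABA, was found mainly in the invasive library. It had 0.0367 FPKM in the localized library, 2.08 in the invasive and 0.183 in the metastatic, about 4, 211 and 20 fragments. The invasive over localized ratio was 56.8 (22.6 to 217) and the metastatic over invasive ratio was 0.0879 (0.0536 to 0.142). It lay under the filter, with a mean of 0.768 FPKM. Like Slc38a1, it differed strongly between the invasive and metastatic libraries, whereas every member past the filter was within 1.5-fold there.

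The neutral amino acid carriers of Slc6a summed to at most 0.573 FPKM. Slc6a15, a carrier best known from brain, had 0.162, 0.0216 and 0.519 FPKM, about 25, 3 and 78 fragments, and was highest in the metastatic library. Slc6a17, a carrier of synaptic vesicles, had 0.342 FPKM, about 96 fragments, in the localized library, 0.00791 in the invasive and 0 in the metastatic. Against a floor of 3 fragments it was at least 30.6-fold lower in the metastatic than in the localized library. Slc6a19, the main neutral carrier of intestinal brush border, had 0.0387, 0.107 and 0.0305 FPKM, 5 to 17 fragments, and Slc6a14 and Slc6a18 had at most 2 fragments.

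The proton-coupled Slc36a carriers were represented by 2 members. Slc36a1 (PAT1), a carrier of small neutral amino acids found on lysosomes and at the cell surface, had 2.93 FPKM in the localized library, 14.0 in the invasive and 10.96 in the metastatic. The ratio to the localized library was 4.77 (4.39 to 5.19) for invasive and 3.75 (3.44 to 4.08) for metastatic, and the log2(FPKM + 1) differences were 1.93 and 1.61, above 96.6% and 94.97% of genes. It had about 683, 2934 and 2437 fragments, and no annotated exon of another gene overlaps it. Slc36a4 (PAT4) had 3.74, 3.52 and 2.46 FPKM, with ratios to the localized library of 0.940 (0.860 to 1.03) and 0.657 (0.596 to 0.723). Slc36a2 and Slc36a3 had at most 2 fragments.

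**Figure D3:**
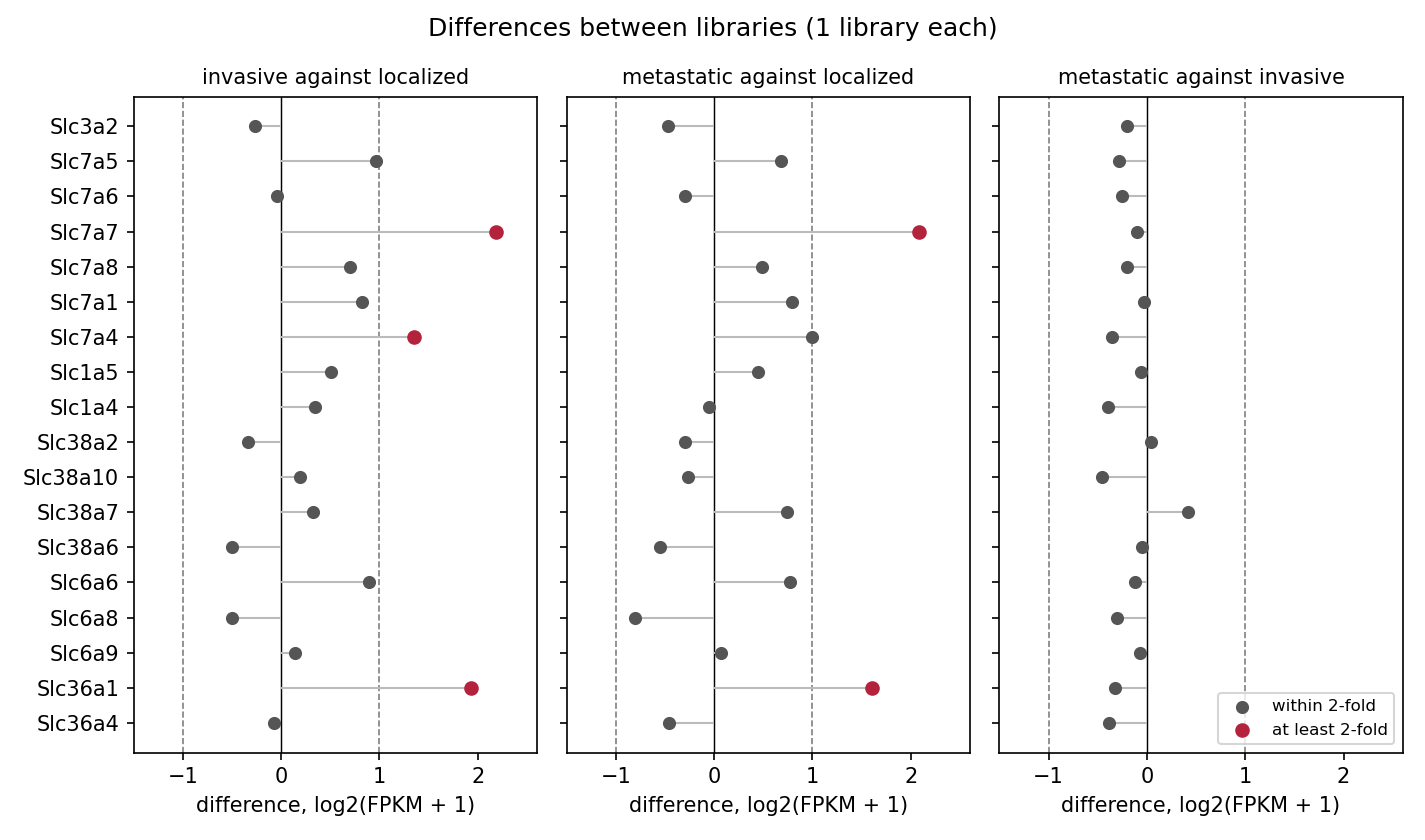
Differences between libraries in log2(FPKM + 1) for the 18 transporter genes past the filter, 1 panel per pair of libraries, with dashed lines at 2-fold and red points past it. Slc7a7 (2.19 and 2.08) and Slc36a1 (1.93 and 1.61) are past 2-fold in both comparisons with the localized library, Slc7a4 (1.35) in the first, and no point is past it for metastatic against invasive.

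Across the 18 members the median difference was 0.33 for invasive against localized (all genes past the filter -0.001), 0.26 for metastatic against localized (all genes 0.004) and -0.20 for metastatic minus invasive (all genes -0.009). The first 2 comparisons share the localized library. The localized library was the lowest of the 3 for 10 of 18 members (55.6%, against 41.8% of genes) and the highest for 6 (33.3%, against 41.6%). With the stages as labelled, levels were lower at each stage for 5 members (27.8%, against 24.3% of genes), namely Slc3a2, Slc7a6, Slc6a8, Slc38a6 and Slc36a4. This share lies near the background. The invasive over localized counting interval included 1 for Slc7a6 (0.920 to 1.02) and Slc36a4 (0.860 to 1.03). For Slc38a6 the metastatic over invasive interval did (0.782 to 1.14). With the localized and invasive lines exchanged none of the 5 was lower at each stage, and 2 others were (11.1%, against 8.04% of genes), Slc1a4 and Slc38a10. The metastatic over localized interval of Slc1a4 included 1 (0.900 to 1.03). The metastatic library was below the invasive in 16 of 18 members (88.9%, against 51.4% of genes), by less than 1.5-fold in each, with Slc38a2 and Slc38a7 as the other 2. The metastatic over invasive counting interval included 1 for Slc1a5 (0.910 to 1.005) and Slc6a9 (0.886 to 1.018). It also did for Slc7a1 (0.949 to 1.012) and Slc38a6 (0.782 to 1.14). For these genes counting error alone leaves the direction open. Summed over the 55 genes the level was 441 FPKM in the localized library, 560.2 in the invasive and 494 in the metastatic. Slc6a6, Slc7a5, Slc3a2, Slc38a2 and Slc38a10 were the 5 most abundant members in each library and held 73.2%, 70.6% and 70.2% of that sum.

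The remaining 37 genes had a mean under 1 FPKM. Of these, 6 were at 0 in every library and 13 more had at most 3 fragments, the level a count of 0 allows. The other 18 had more than 3 fragments in some library, and 4 of them reached 1 FPKM in some library, namely Slc7a2, Slc7a3, Slc6a12 and Slc38a9. Fragment numbers rest on 1 transcript length a gene and intervals cover counting error only.

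**Figure D4:**
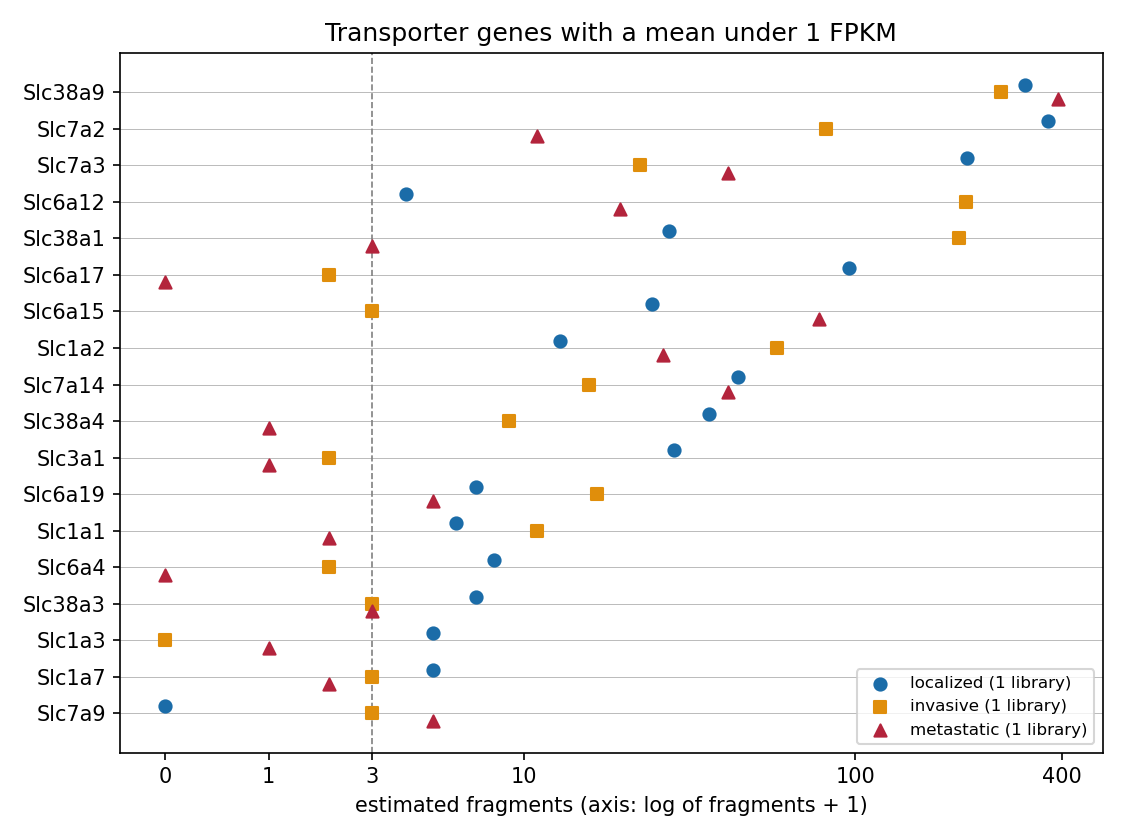
Estimated fragments, on a log axis of fragments + 1, for the 18 transporter genes with a mean under 1 FPKM and more than 3 fragments in some library, 1 point per library, with a dashed line at 3 fragments. Slc6a12 and Slc38a1 are highest in the invasive library (211 and 201 fragments), Slc6a15 in the metastatic (78) and Slc7a2, Slc7a3 and Slc6a17 in the localized (365, 212 and 96).

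Genes that work with these carriers were read from 7 lists. Among 9 listed accessory and trafficking genes in the table, 6 passed the filter, and 2 were at least 2-fold lower in both the invasive and the metastatic library against the localized (6.07% and 7.29% of all genes), with 0 higher. These were Sgk1, a kinase known to raise the surface level of several carriers (113, 4.80 and 1.62 FPKM), and Anpep, an aminopeptidase of the brush border (23.0, 0.732 and 0.886 FPKM). Sgk1 was also 2-fold lower in the metastatic than in the invasive library. The ubiquitin ligase Nedd4 was the most abundant of the list, with 388, 417 and 349 FPKM.

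Lysosomal amino acid sensing and mTORC1 genes showed no difference of 2-fold, with 0 of 32 members higher or lower in any comparison, against the shares of all genes given above (8.78% and 6.07%, 9.08% and 7.29%, 1.33% and 1.67%), and medians of -0.09 (invasive) and 0.02 (metastatic) against localized, and 0.04 for metastatic minus invasive. Sec13 (95.6, 89.1 and 90.0 FPKM), a subunit of the GATOR2 complex and of vesicle coats, had the largest level in the localized library. Lamtor2 (92.6, 119 and 123 FPKM) had the largest in the invasive and the metastatic library.

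In the amino acid deprivation response, 2 of 11 genes exceeded the localized library by 2-fold in the invasive and 1 in the metastatic, against 8.78% and 9.08% of all genes, and 0 were lower. With 11 genes these counts lie near the background. Asns, asparagine synthetase, had 26.0, 66.3 and 58.1 FPKM and was past 2-fold in both. Chac1, an enzyme that breaks down glutathione, had 5.14, 18.1 and 10.9 FPKM. The response's transcription factor Atf4 was the most abundant gene of the list and within 2-fold, with 119, 178 and 147 FPKM. The median of the list was 0.14 for invasive and 0.10 for metastatic against localized.

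Against the localized library, 2 of 13 glutamine and glutamate enzymes past the filter were higher by 2-fold in the invasive and 3 in the metastatic, and 0 were lower, where 8.78% and 9.08% of all genes were higher. Glul, which makes glutamine from glutamate, had 14.4, 74.2 and 63.3 FPKM, with log2 differences of 2.28 and 2.06. The alanine transaminase Gpt (2.34, 6.02 and 7.20 FPKM) was past 2-fold in both, and the proline oxidase Prodh (1.04, 2.95 and 4.38 FPKM) in the metastatic library. Glud1, glutamate dehydrogenase, was the most abundant in the localized library, with 131, 97.8 and 96.1 FPKM. Got2 (87.7, 103 and 111 FPKM) was the most abundant in the invasive and the metastatic library. The medians of this list were 0.31 and 0.22.

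Branched-chain and arginine enzymes went both ways in the metastatic library. The counts below stand beside 8.78% of all genes higher and 6.07% lower for invasive, and 9.08% and 7.29% for metastatic, against localized. With 9 genes past the filter they lie near these shares. Of 9 past the filter, Nos2, the inducible nitric oxide synthase that uses arginine, was the 1 gene past 2-fold upward in the invasive against the localized library (17.7, 49.5 and 26.7 FPKM). In the metastatic against the localized library Ass1 (5.82, 10.8 and 14.8 FPKM) and the mitochondrial transaminase Bcat2 (28.1, 38.8 and 59.1 FPKM) were higher and the cytosolic transaminase Bcat1 (7.97, 7.27 and 1.24 FPKM) was lower. Bcat1 was also 2-fold lower in the metastatic than in the invasive library. The polyamine enzyme Odc1 was the most abundant, with 71.7, 70.9 and 73.3 FPKM.

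Mitochondrial carriers went both ways in the invasive library. Over all genes, 8.78% were higher and 6.07% lower for invasive, and 9.08% and 7.29% for metastatic, against localized. With 10 and 6 genes, the counts below lie near these shares. Of 10 mitochondrial amino acid carriers past the filter, Slc25a29, a carrier of basic amino acids, was higher (0.539, 2.25 and 1.60 FPKM) and Sfxn3 lower (56.3, 27.3 and 29.7 FPKM) in the invasive than in the localized library. In the metastatic library the ornithine carrier Slc25a15 (2.87, 5.86 and 7.07 FPKM) and the branched-chain carrier Slc25a44 (7.89, 15.4 and 17.3 FPKM) were higher and 0 were lower. Among the mitochondrial carriers, Sfxn3 was the most abundant in the localized library and Sfxn1 (36.8, 43.0 and 44.1 FPKM) in the invasive and the metastatic library. Of 6 plasma membrane and lysosomal carriers of other families past the filter, the aromatic amino acid carrier Slc16a10 was lower in both libraries (3.19, 0.637 and 0.703 FPKM) and 0 were higher. Slc15a4, a lysosomal carrier of histidine and peptides, had the highest level of that list, with 8.79, 9.05 and 12.9 FPKM.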

How the data were processed

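Libraries came from 1 ug of Trizol-extracted total RNA with an Illumina TruSeq kit, per the labels' protocols. The authors deposited FPKM per gene in 1 table with a column per library. The submitters' processing notes list Cufflinks 2.2.1, STAR 2.5.2a and FastQC 0.11.2 with the GRCm38 build, without their roles; strandedness and read layout are not given in the sources used here. The lowest value was 0.1 in each column, so the deposited FPKM were read as having 0.1 added, and 0.1 was subtracted. Of 22784 entries, 27 with a date number for a symbol and 19 of short or ribosomal RNA were left out.

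Differences were computed in log2(FPKM + 1) with Python 3.11.15, numpy 2.4.6, pandas 2.3.3 and scipy 1.17.1. Genes with a mean of at least 1 FPKM were counted, and called at 2-fold. Depth was the number that brought low FPKM of genes with 1 GENCODE M21 transcript of 1000 to 4000 bases nearest to whole fragments, after taking 200 bases off each length; fragments of other genes use the longest principal coding transcript. Ratios are of FPKM, with 95% Clopper-Pearson intervals on fragments. The calls and the depth estimate were tested on simulated counts with counting error only, made with the same length rule. Those data held no changes near 2-fold, no changes in low genes and no spread between replicates. They therefore test none of these, nor the length rule. Promoters are RefSeq sequences on GRCm38.p6. The transporter genes, the lists and the tests were chosen with earlier results of these data known. All members could be named. For other lists, the most abundant gene of each library and up to 4 past 2-fold were named. One item of the genotype label is not reported here. Alternatives changed the pseudocount, filter, floor, scaling, fold rule and, chosen after seeing the data, the order of the stages.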

Additional observations from a re-analysis of the deposited data

How the results depend on the processing

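With 1 library a stage, no replicate could be left out. No paired analysis was possible because each stage has 1 library. Under the 1.5-fold rule, 7 members were higher in the invasive than in the localized library, and 7 were higher and 1, Slc6a8, lower in the metastatic. Without the filter on low values, Slc7a3 was the 1 member lower in each comparison with the localized library, and 1, Slc6a12, was lower in the metastatic than in the invasive library. Without the filter the medians were 0, 0 and -0.02, since most of the 55 genes are near 0. All other 2-fold counts were within 1.5 times of those reported. A pseudocount of 0.1 brought Slc7a8 (1.32) past 2-fold for invasive and Slc7a4 (1.87) for metastatic against localized. Scaling to equal sums also brought Slc7a4 (1.01) past it for metastatic against localized, and both stricter filters left Slc7a4 out of the invasive count, with 2 of 16 and 2 of 14 members. With the localized and invasive lines exchanged, an alternative chosen after seeing the data, 0 members were higher and 2 lower at each stage, against 1 and 5 as labelled. Scaling by median ratios or to equal sums, and the pseudocount, changed the sign of 0 of the 54 member differences. The pseudocount of 0.1 moved 8 of the 54 by more than their counting margin, and scaling to equal sums moved 1. For invasive against localized the pseudocount took Slc7a7 from 2.19 to 2.48, Slc36a1 from 1.93 to 2.22 and Slc7a4 from 1.35 to 2.35. Depth limits genes at or under 3 fragments.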
